A study of Homo sapiens with 6 samples.

Results

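The genes described here are 40 genes of DNA replication, chosen by name from the 20461 entries with an Ensembl gene identifier in each deposited table. They cover origin licensing (10 genes), helicase activation (6), primase and the replicative polymerases (8), the sliding clamp with its loader and the single-strand binding protein RPA (9), joining of Okazaki fragments (2), and supply of nucleotides together with copying of DNA methylation (5). All 40 were found once in each table, and all 40 had enough reads to be tested. RNA was sequenced from ARPE-19, an established human cell line derived from the retinal pigment epithelium. The control group had received a control lentivirus and the PDZK1 group a virus driving overexpression of PDZK1, which encodes a PDZ-domain scaffold, both at a multiplicity of infection of 10 and followed by selection with 4 µg/ml puromycin. Cells of both groups had then been kept in 37.5 mM glucose for 48 h, so high glucose is shared by all libraries and its own effect is not seen in the comparison. There were 3 libraries per group, and since the labels do not say that these came from separate transductions or cultures, the p-values measure the spread between libraries, which may be technical.

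A human chromosome is copied once per cell cycle. During G1 the origin recognition complex (ORC), CDC6 and CDT1 load the ring-shaped helicase made of MCM2 to MCM7 onto origins, a step called licensing. At the start of S phase CDC45 and the GINS complex join the ring and switch it on, polymerase alpha with primase lays down primers, RFC loads the PCNA clamp, polymerases epsilon and delta extend the strands, and FEN1 and LIG1 join the lagging-strand fragments. Ribonucleotide reductase, thymidylate synthase and thymidine kinase supply the nucleotides. Many of these genes are transcribed late in G1 and in S phase under the E2F transcription factors, which the retinoblastoma protein and its relatives hold back until cyclin-dependent kinases phosphorylate them. In senescent cells, and in cells that leave the cycle, the messages of this programme are usually low, and the study addressed senescence of the pigment epithelium in high glucose.

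Total counts ran from 27970618 to 32804567 per library, so that 3 counts corresponded to between 0.0915 and 0.107 CPM (counts scaled to the size of the library). PDZK1 had 19, 18 and 23 counts under control virus and 3020, 2541 and 2828 counts under PDZK1 virus, as the labels state. Of 14 markers of pigment epithelium, 11 were detected well enough to be tested, with the keratin KRT8 at 29619 counts or more and KRT18 at 19303 or more. The visual cycle enzyme RPE65 and the transport protein TTR were at 0 in all libraries, and tyrosinase had 2 counts in 1 library and 0 elsewhere, so the labelled cell type lacked 3 of its defining markers. Of 7 markers of blood, endothelium, photoreceptors, glia and liver, 6 had at most 6 counts in any library and the endothelial VWF at most 22. Control library 3 stood apart from the others of its group on the second principal component of log2 CPM (-29.99 against 14.5 and 18.8).

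Compared with control, 38 of the 40 replication genes had a lower fitted level in the PDZK1 libraries, and the differences were small. The median log2 fold change over the 40 genes was -0.13, a level 8.47% lower, beside a median of -0.00 over all 13645 genes tested, of which 50.1% were lower. Single values ran from -0.42 for ORC1 to 0.04 for POLD3. With edgeR's quasi-likelihood test and Benjamini-Hochberg adjustment over all genes, 1 of the 40 passed an adjusted p of 0.05. That gene was MCM6, a subunit of the licensing helicase, which fell, while 39 did not pass. Of all genes tested, 3.83% passed in either direction, 2.41% as lower and 1.41% as higher. At an unadjusted p under 0.05, 13 of the 40 (32.5%) were lower and 0 higher, where the background was 9.37% of all genes lower and 8.13% higher. In 15 of the 40 (37.5%) every PDZK1 library lay below every control library in CPM, against 12.3% of all genes, and in 0 of the 40 did every PDZK1 library lie above, against 11.6%. The 95% confidence interval lay within a 1.5-fold change in both directions for 38 of the 40, ORC1 and the polymerase epsilon subunit POLE2 being the exceptions. RNA from whole cultures was measured, so fewer cells in S phase and less RNA per cell cannot be told apart. The members are parts of 1 cell-cycle programme and are not independent of each other.

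**Figure D1:**
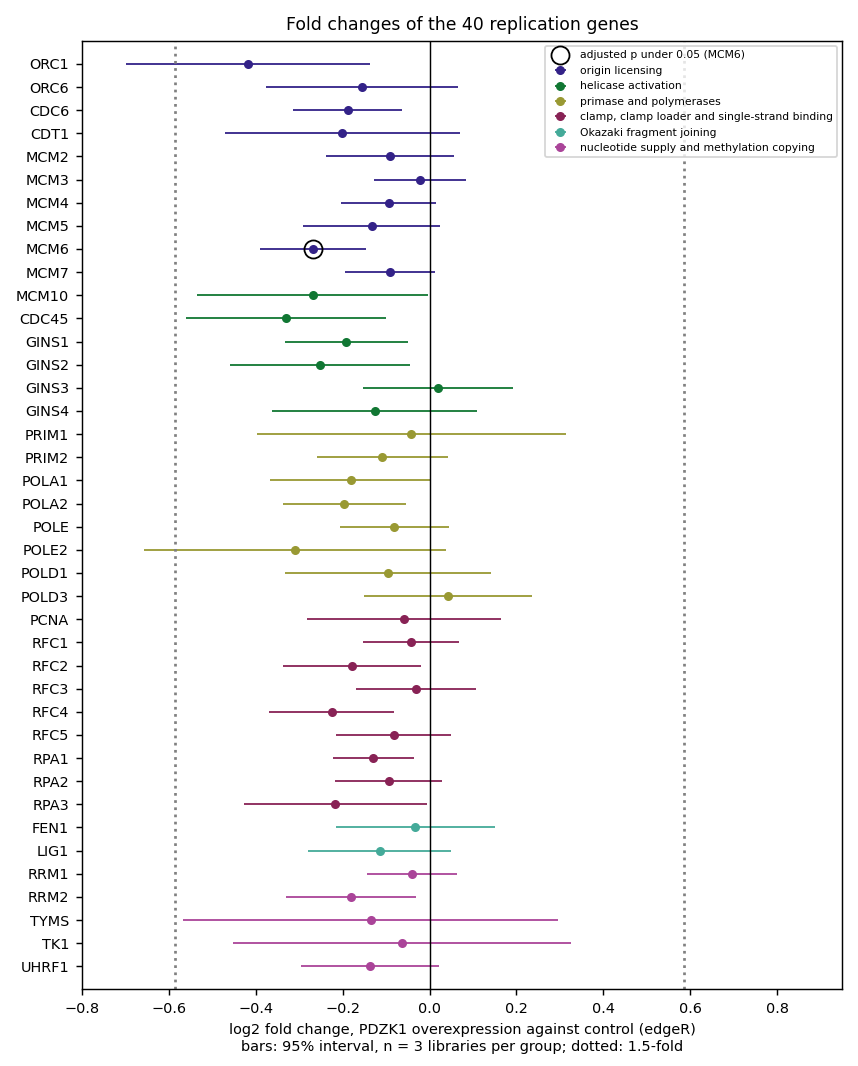
Log2 fold change (PDZK1 minus control) of the 40 replication genes from the edgeR fit, coloured by role, with 95% confidence intervals as bars and dotted lines at a 1.5-fold change. The circled point is MCM6, the only one of the 40 past the adjusted threshold in this fit, at -0.27, and 38 of the 40 points lie left of 0.

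Origin licensing held the gene that passed the test. MCM6 (ENSG00000076003, GRCh38 chromosome 2, 135839626 to 135876426, minus strand) had 55.1, 60.1 and 54.3 CPM in control and 46.8, 46.7 and 47.2 CPM in PDZK1 libraries. The groups did not overlap, and the PDZK1 values lay within 0.5 CPM of each other. The log2 fold change was -0.27 (SE 0.054, 95% confidence interval -0.39 to -0.15), a level 16.9% lower, with an adjusted p of 0.0278 in edgeR. DESeq2, which called 5.81% of all genes, gave an adjusted p of 0.00399, and limma-voom, which called 3.2%, gave 0.0364. The call did not hold in every fit. The adjusted p was 0.0555 without control library 1, 0.110 without control library 2, 0.116 without PDZK1 library 1, 0.0821 without PDZK1 library 2 and 0.101 without PDZK1 library 3, and it was 0.0118 without control library 3, where 6.32% of all genes passed. The log2 fold change stayed between -0.30 and -0.22 across these 6 fits.

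MCM6 was lower relative to its partners, a ratio that uses the CPM values from which MCM6 was singled out and is not separate support. Its log2 CPM minus the mean of the other 5 subunits of the ring was -0.46, -0.40 and -0.57 in control libraries. In PDZK1 libraries it was -0.62, -0.74 and -0.60, so the groups were separate only narrowly. By the same measure MCM3 was separate in the other direction, with 0.18, 0.24 and 0.12 in control and 0.33, 0.25 and 0.29 in PDZK1 libraries. The margin was narrow (0.240 against 0.252), and the partners of MCM3 include MCM6. Among the subunits of GINS, RFC and RPA, this measure was separate for GINS1, GINS2 and RFC4, all lower in PDZK1 libraries. It overlapped for all the other subunits of these complexes. GINS1, GINS2 and RFC4 were also separate in CPM, so the ratio is not separate support for them. How often such ratios separate over all genes was not computed, so these cases are a description only. In CPM the other subunits of the ring had overlapping groups and did not pass the test. MCM5 had a log2 fold change of -0.13 (adjusted p 0.372 in edgeR), MCM4 -0.09 (0.364), MCM7 -0.09 (0.354) and MCM2 -0.09 (0.532). MCM3 was nearest to 0, with 79.5, 86.9 and 80.6 CPM in control and 81.3, 82.8 and 79.1 CPM in PDZK1 libraries (-0.02, adjusted p 0.862).

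Among the loaders of the ring, ORC1, the ATPase subunit of ORC whose protein rises and falls with the cell cycle, had the lowest fold change of all 40 genes. ORC1 (ENSG00000085840, GRCh38 chromosome 1, 52372829 to 52404459, minus strand) had 7.09, 6.15 and 6.52 CPM in control and 4.99, 4.67 and 5.14 CPM in PDZK1 libraries. The groups were separate by more than 1 CPM, yet at this low level the estimate was wide (log2 fold change -0.42, 95% confidence interval -0.70 to -0.14) and did not pass the threshold (adjusted p 0.109 in edgeR). CDC6, the ATPase that bridges ORC and the helicase (ENSG00000094804, GRCh38 chromosome 17, 40287633 to 40304657, plus strand), had 40.3, 37.3 and 37.4 CPM in control and 33.6, 34.5 and 32.8 CPM in PDZK1 libraries (-0.19, 95% confidence interval -0.31 to -0.06, adjusted p 0.107). Its groups did not overlap. CDT1, the loading factor that geminin restrains, had 11.5, 10.2 and 13.4 CPM against 9.39, 11.0 and 10.1 CPM (-0.20, adjusted p 0.441), and ORC6 had 19.4, 20.0 and 19.9 CPM against 15.3, 20.2 and 17.8 CPM (-0.16, adjusted p 0.469). Both overlapped between the groups. All 10 licensing genes had negative fold changes, with a median of -0.14.

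**Figure D2:**
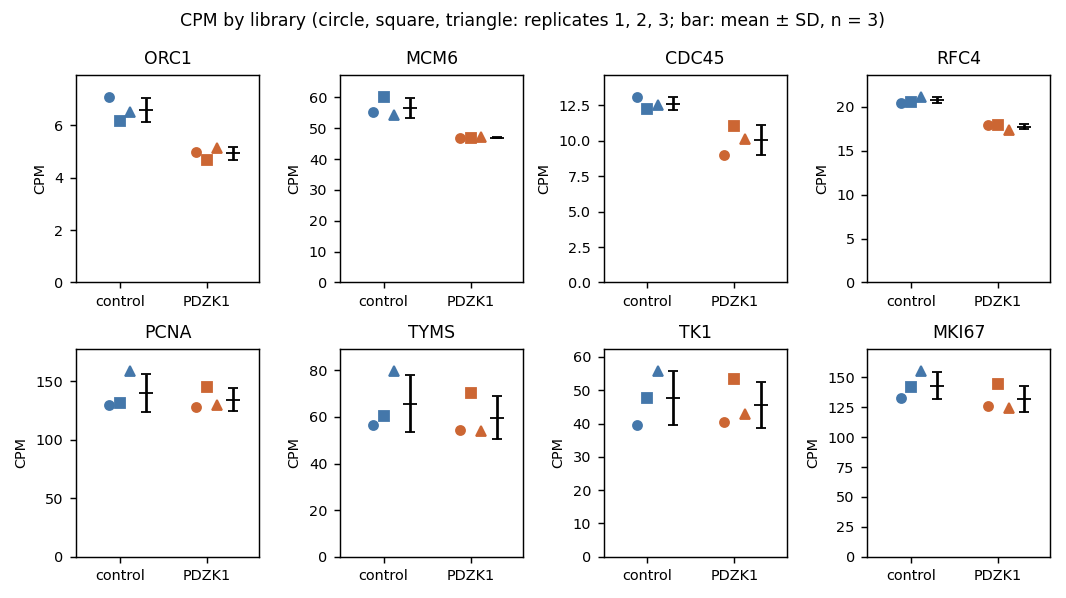
CPM in each library for 7 replication genes and MKI67, a marker of proliferation, on linear axes from 0, with a symbol for each library and the mean ± SD (n = 3) beside each group. In MCM6 the control libraries sit between 54.3 and 60.1 CPM and the PDZK1 libraries between 46.7 and 47.2 CPM.

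Several genes of the programme carry E2F-type octamers next to their start. The promoter windows searched were the 250 bases before and 50 bases after 1 RefSeq start site per gene (GRCh38.p14), and 34 of the 40 genes had a window. Other start sites of a gene were not searched. For 32 genes the last 25 bases of the window lay in a GENCODE 29 transcript, while for GINS1 and MCM10 they did not. The start used can differ from the GENCODE gene start, as for CDC6. MCM4, MCM5, GINS4, POLD3, RPA2 and RPA3 had none. The octamers TTTCCCGC, TTTGGCGC, TTTCGCGC and TTTGCCGC were searched on both strands, which cover the core spellings of the E2F site, and 18 of the 34 windows (52.9%) held at least 1. The share was 3.33% of 27305 promoters of the same length and 5.30% of the promoters of tested genes. The pentamer CCAAT, also searched on both strands, lay in 58.8% of the members' windows and 35.7% of all. In the related lists described below, the octamers lay in 18.9% of windows of other replication genes. They lay in 26.1% for S-phase entry regulators and 11.8% for genes of G2 and mitosis. CCAAT lay in 51.4%, 34.8% and 76.5% of the windows of these lists, in the same order, so it was not particular to the members. The sequences printed below are those of the 6 genes with an octamer whose groups did not overlap, followed by MCM2 and PCNA, whose groups overlapped. Each is a 30-base window on the strand of the gene, written 5′ to 3′, with the octamer in capitals. A stretch of 12 capitals is 2 octamers on opposite strands that share bases.
MCM6, chr2:135876575-135876604, minus strand, octamers from 152 bases before the start: ggctttgcaTTTGGCGCGAAAtccctttcc
MCM6, chr2:135876513-135876542, minus strand, octamers from 90 bases before the start: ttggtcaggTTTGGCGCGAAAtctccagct
CDC6, chr17:40287875-40287904, plus strand, 7 bases after the start: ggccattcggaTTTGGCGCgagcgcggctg
GINS1, chr20:25407667-25407696, plus strand, 5 bases after the start: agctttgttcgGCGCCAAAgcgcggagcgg
GINS2, chr16:85688967-85688996, minus strand, 31 bases before the start: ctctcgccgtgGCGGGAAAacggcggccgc
POLA1, chrX:24693770-24693799, plus strand, 137 bases before the start: gtcatcacaggGCGCCAAAcgcgcgtccgc
POLA2, chr11:65261898-65261927, plus strand, 53 bases before the start: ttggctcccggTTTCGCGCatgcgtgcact
MCM2, chr3:127598404-127598433, plus strand, 2 bases after the start: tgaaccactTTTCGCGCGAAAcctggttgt
PCNA, chr20:5126663-5126692, minus strand, 59 bases before the start: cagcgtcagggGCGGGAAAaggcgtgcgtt

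MCM6, the gene that passed the test, held the 12-base stretch at 2 positions, and MCM2, its partner in the ring, held a related stretch of the same length. MCM3 and MCM7 also had octamers at 2 positions each. The octamer did not set apart the genes with lower values. The 18 genes with it had a median log2 fold change of -0.14, with 6 not overlapping between the groups, and the 16 without it a median of -0.12, with 8 not overlapping. ORC1, CDC45, RFC2, RFC4 and RRM2 were among those without. A match describes the letters in the window and does not show that a factor binds there, nor does a window without a match show that none does.

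The genes that activate the helicase had the lowest median of the roles, -0.22, with 5 of 6 lower. CDC45, which binds the ring when origins fire (ENSG00000093009, GRCh38 chromosome 22, 19479459 to 19520612, plus strand), had 13.1, 12.3 and 12.5 CPM in control and 8.99, 11.0 and 10.1 CPM in PDZK1 libraries. The groups did not overlap, and the log2 fold change of -0.33 (95% confidence interval -0.56 to -0.10) did not pass the threshold (adjusted p 0.121 in edgeR). In the GINS complex 2 of the 4 subunits were separate between the groups. GINS1 had 27.1, 27.6 and 27.9 CPM against 24.7, 25.1 and 22.5 CPM (-0.19, adjusted p 0.143), and GINS2 had 12.3, 13.6 and 13.2 CPM against 11.6, 10.9 and 10.3 CPM (-0.25, adjusted p 0.185). GINS4 (-0.13, adjusted p 0.600) and GINS3 (0.02, 95% confidence interval -0.15 to 0.19, adjusted p 0.934) overlapped between the groups, and whether the 4 fold changes differ was not tested. MCM10, which helps the activated helicase leave the origin, had 11.1, 12.7 and 9.68 CPM against 9.43, 9.70 and 8.67 CPM (-0.27, adjusted p 0.280), and PDZK1 library 2 lay just above control library 3. The annotated span of GINS2 overlaps that of GSE1 on the opposite strand, which had 66.9 CPM in control. The strand setting of the counting is not given in the sources used here.

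Of the 8 genes of primase and the polymerases, 7 were lower, with a median of -0.10. Polymerase alpha, which starts each strand with primase, had 2 subunits that did not overlap. POLA2 (B subunit) had 27.6, 30.1 and 29.7 CPM in control and 25.9, 24.1 and 26.2 CPM in PDZK1 libraries (-0.20, adjusted p 0.138), and POLA1 (catalytic subunit) had 21.9, 19.4 and 19.2 CPM against 16.5, 18.7 and 18.2 CPM (-0.18, adjusted p 0.299). The primase subunit PRIM2 had 19.7, 20.9 and 20.7 CPM against 18.4, 19.7 and 18.8 CPM (-0.11, adjusted p 0.455), and its groups were apart by less than 0.01 on the log2 scale. Its catalytic partner PRIM1 varied within the PDZK1 group (6.55, 5.92 and 8.89 CPM, against 6.90, 7.80 and 7.28 CPM in control, -0.04, adjusted p 0.929), and it overlaps NACA, a gene with 508 CPM on the same strand. POLE2 was the lowest of this role at -0.31 (5.01, 4.47 and 5.54 CPM against 4.49, 4.00 and 3.63 CPM, adjusted p 0.350) and POLD3 the highest at 0.04 (adjusted p 0.855). The catalytic subunits POLE (-0.08) and POLD1 (-0.10) overlapped between the groups, with adjusted p-values of 0.512 and 0.711.

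All 9 genes of the clamp, the clamp loader and RPA were lower, with a median of -0.09, and 5 of the 9 did not overlap between the groups. RFC4, a small subunit of the clamp loader (ENSG00000163918, GRCh38 chromosome 3, 186789880 to 186807058, minus strand), came nearest to the threshold after MCM6. It had 20.5, 20.6 and 21.1 CPM in control and 17.9, 17.9 and 17.4 CPM in PDZK1 libraries (-0.22, 95% confidence interval -0.37 to -0.08, adjusted p 0.0948 in edgeR). The spread within each group was below 1 CPM and the gap between them larger than it. The annotated span of RFC4 overlaps that of EIF4A2 on the opposite strand (468 CPM in control, log2 fold change -0.05). The extent of the overlap was not measured, and the part of EIF4A2 reads in the RFC4 values was not tested. RFC2 had 26.8, 25.1 and 28.1 CPM against 24.5, 24.2 and 21.9 CPM (-0.18, adjusted p 0.226). RFC5 had 23.3, 23.2 and 22.6 CPM against 22.1, 21.5 and 21.8 CPM (-0.08, adjusted p 0.534), and WSB2 (308 CPM) lies across it on the opposite strand. The groups of RFC1, the large subunit (-0.04, adjusted p 0.726), and of RFC3 (-0.03, adjusted p 0.851) overlapped.

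RPA coats the single strands behind the helicase. Its largest subunit, RPA1, had 92.2, 92.9 and 93.2 CPM in control and 87.2, 81.2 and 86.1 CPM in PDZK1 libraries (-0.13, 95% confidence interval -0.22 to -0.04, adjusted p 0.133). The smallest, RPA3, had 14.9, 15.6 and 15.3 CPM against 12.05, 12.8 and 14.7 CPM (-0.22, adjusted p 0.272). Both pairs of groups were separate, RPA3 only narrowly, while RPA2 overlapped (-0.09, adjusted p 0.431). SMYD4 (12.05 CPM) and UMAD1 (25.03 CPM) lie on the strand opposite to RPA1 and RPA3. PCNA, the clamp itself and the most abundant gene of the 40 per length, had 129, 131 and 158 CPM in control and 127, 145 and 129 CPM in PDZK1 libraries (-0.06, 95% confidence interval -0.28 to 0.16, adjusted p 0.812). Control library 3 and PDZK1 library 2 held its highest values, and the fold change was 0.04 without control library 3.

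Neither gene of fragment joining was separate between the groups. The flap nuclease FEN1 had 52.6, 54.0 and 59.3 CPM in control and 52.5, 60.5 and 49.1 CPM in PDZK1 libraries (-0.03, adjusted p 0.885), and DNA ligase LIG1 had 25.5, 27.1 and 28.2 CPM against 25.03, 26.7 and 22.9 CPM (-0.11, adjusted p 0.477). FEN1 overlaps the annotated span of FADS2, which had 547 CPM on the same strand.

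The genes of nucleotide supply and methylation copying were all lower, 5 of 5, with a median of -0.14, and 1 was separate between the groups. RRM2, the subunit of ribonucleotide reductase that is made in S phase, had 80.7, 79.3 and 76.8 CPM in control and 69.7, 76.4 and 62.9 CPM in PDZK1 libraries (-0.18, 95% confidence interval -0.33 to -0.03, adjusted p 0.192 in edgeR). The lowest control value and the highest PDZK1 value differed by less than 1 CPM. Its partner RRM1, which is present through the cycle, had 143, 144 and 150 CPM against 136, 152 and 137 CPM (-0.04, adjusted p 0.721). RRM1 lies on chromosome 11 among 97 tested genes within 5 Mb whose median log2 fold change was 0.14, whereas the medians around the other members ran from -0.06 to 0.03. Thymidylate synthase TYMS and thymidine kinase TK1 varied more between libraries of a group than between the groups. TYMS had 56.6, 60.6 and 79.7 CPM against 54.6, 70.4 and 54.1 CPM (-0.14, 95% confidence interval -0.57 to 0.30, adjusted p 0.761), and TK1 had 39.6, 47.6 and 55.7 CPM against 40.6, 53.3 and 42.8 CPM (-0.06, adjusted p 0.888). UHRF1, which guides DNMT1 to newly copied DNA, had 29.5, 34.5 and 34.5 CPM against 30.6, 29.6 and 29.3 CPM (-0.14, adjusted p 0.361), with control library 1 inside the PDZK1 range.

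**Figure D3:**
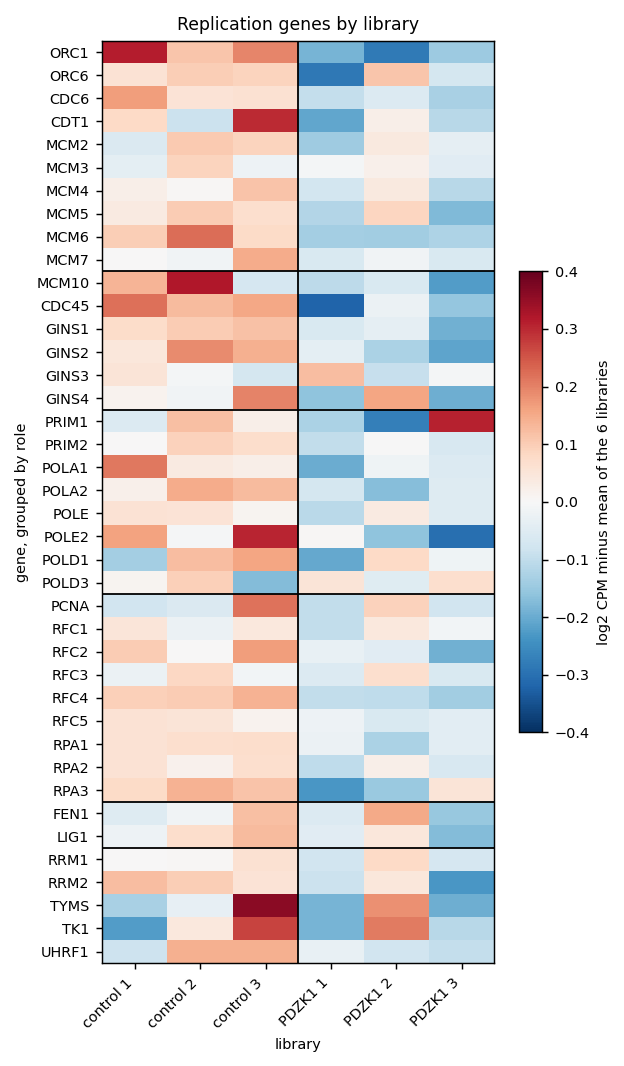
Log2 CPM of each replication gene in each library minus its mean over the 6 libraries, grouped by role, red above and blue below the mean. The control columns are mostly red and the PDZK1 columns mostly blue, with median deviations of 0.05, 0.08 and 0.10 in control and -0.10, -0.01 and -0.08 in PDZK1 libraries.

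Over the 40 genes the median deviation from the mean of the 6 libraries was 0.05, 0.08 and 0.10 (log2 CPM) in control libraries 1, 2 and 3 and -0.10, -0.01 and -0.08 in PDZK1 libraries 1, 2 and 3. The groups did not overlap, and PDZK1 library 2 lay nearest to the controls. By role, the medians of the libraries did not overlap between the groups for licensing, helicase activation, polymerases and clamp, and overlapped for fragment joining and nucleotide supply. Control library 3 and PDZK1 library 2 were the highest of their groups together in 13 of the 40 genes (32.5%), PCNA, FEN1, LIG1, RRM1, TYMS and TK1 among them, against 19.8% of all genes tested. The same held for 22 of 22 genes of G2 and mitosis, whose median deviations were -0.13, 0.01 and 0.29 in control and -0.13, 0.19 and -0.18 in PDZK1 libraries. In those later-phase genes the groups overlapped, with a difference between control libraries larger than that between the groups. The part of this difference between libraries in the values of the replication genes was not tested. Without control library 3 the median log2 fold change of the 40 genes was -0.10 with 36 lower, and without PDZK1 library 2 it was -0.16 with 37 lower. The smallest median difference when a library was left out, -0.088 with 37 lower, came without PDZK1 library 1.

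Levels between genes can be compared per length, in the deposited FPKM (fragments scaled by transcript length and mapped fragments of the library). PCNA had the highest level of the 40 genes, 99.7 ± 11.4 FPKM in control and 96.5 ± 6.81 FPKM in PDZK1 libraries (SD, n = 3 each). MCM7 followed with 46.4 ± 3.25 FPKM in control and RRM1 with 42.5 ± 0.922 FPKM. TYMS (37.3 ± 6.92 FPKM) overlapped RRM1 in its range over the libraries. The lowest levels were those of ORC1 (1.93 ± 0.148 FPKM in control, 1.46 ± 0.0749 FPKM in PDZK1), MCM10 (2.51 ± 0.236 FPKM in control) and POLE2 (2.77 ± 0.347 FPKM in control). Subunits that work in equal numbers differed in level. Within the MCM2 to MCM7 ring the control mean of MCM7 was 3.79 times that of MCM5, within RPA that of RPA2 was 3.17 times that of RPA3, within GINS that of GINS3 was 1.89 times that of GINS2, and within RFC that of RFC2 was 1.5 times that of RFC5. In PDZK1 libraries the same ratios were 3.90, 3.40, 2.22 and 1.39. The groups did not overlap in FPKM in 15 genes, all lower in PDZK1 libraries, and 13 of these were also separate in CPM. The share of all genes without overlap was not computed in FPKM. In CPM it was 12.3% lower and 11.6% higher. Both measures describe the same libraries, so the genes in common are not separate support.

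**Figure D4:**
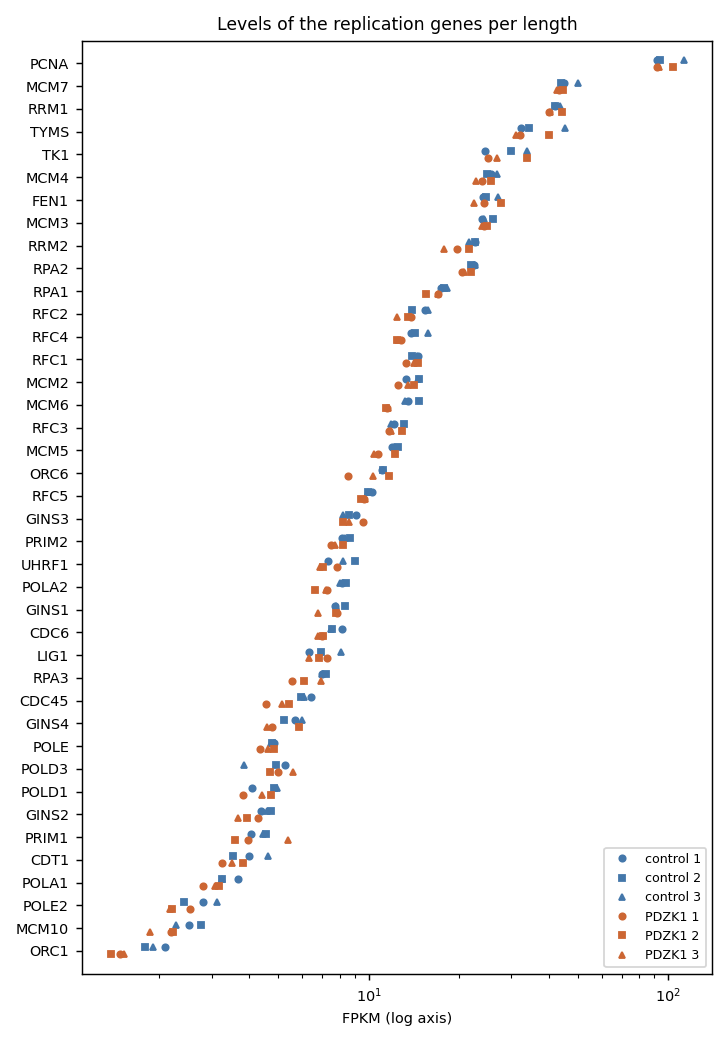
Deposited FPKM of the 40 replication genes in each library on a log axis, ordered by the control mean. PCNA lies highest at 99.7 FPKM in control and ORC1 lowest at 1.93 FPKM.

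The other genes of replication, a list of 45 that holds the remaining ORC, polymerase and RNase H2 subunits, origin firing factors, chromatin assembly factors and further nucleotide enzymes, had a median log2 fold change of -0.05 and 32 lower. In 8 of the 45 (17.8%) the groups were separate as lower and in 1 as higher, against 12.3% and 11.6% of all genes. None of the 45 passed the threshold in edgeR (5 lower and 1 higher at an unadjusted p under 0.05), while 1 did in DESeq2. The gene called by DESeq2 was POLE4, a histone-fold subunit of polymerase epsilon, which was higher, with 21.4, 24.1 and 20.5 CPM in control and 27.9, 27.3 and 26.2 CPM in PDZK1 libraries. Its groups did not overlap, and its log2 fold change was 0.30 (95% confidence interval 0.14 to 0.47), with an adjusted p of 0.0551 in edgeR and 0.0305 in DESeq2. Fitted values of polymerase epsilon subunits lay on both sides of 0, with -0.31 for POLE2 (adjusted p 0.350 in edgeR, groups overlapping) and 0.30 for POLE4. Whether the subunits differ was not tested. Among the lower genes, the deoxycytidine kinase DCK had 75.5, 74.7 and 66.4 CPM against 64.7, 64.0 and 61.0 CPM (-0.19, adjusted p 0.118), and it passed the test without control library 3 (adjusted p 0.0132).

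Of 31 regulators of S-phase entry, 29 were tested, with a median of -0.01, and 0 passed the threshold in edgeR (2 lower and 2 higher at an unadjusted p under 0.05), while 1 did in DESeq2. That gene was CDKN1A, which encodes the kinase inhibitor p21, a marker of senescence that the study followed as protein. It had 506, 522 and 542 CPM in control and 574, 573 and 568 CPM in PDZK1 libraries, without overlap (0.13, 95% confidence interval 0.04 to 0.21, adjusted p 0.103 in edgeR, 0.0437 in DESeq2 and 0.0167 without control library 3). The paper reported that PDZK1 overexpression in high glucose lowered p21 protein and relieved cell cycle arrest. It also reported lower p16 and p53, recovered phosphorylation of the retinoblastoma protein and recovered proliferation. Its figure labels those groups Ad_Ctrl and Ad_PDZK1, whereas these libraries came from lentivirus with puromycin selection. RNA and protein are also different measures. The reason for the opposite directions was not tested. How the 38 of 40 replication genes with lower RNA relate to the reported proliferation was not tested either. E2F1, an activator of replication genes, had 18.1, 22.1 and 15.8 CPM against 15.6, 15.3 and 16.2 CPM (-0.25, adjusted p 0.307). The E-type cyclins CCNE1 (-0.15, adjusted p 0.655) and CCNE2 (-0.23, adjusted p 0.438) overlapped between the groups. Cyclin D1 (CCND1) had 727, 795 and 822 CPM against 868, 990 and 835 CPM (0.20, adjusted p 0.192), with every PDZK1 library above the controls. Of the 29 regulators tested, 2 (6.90%) were separate as lower and 2 as higher. The shares over all genes were 12.3% and 11.6%, so separation was no more frequent here than in the background. Of 22 genes of G2 and mitosis, 20 were lower, with a median of -0.11, 0 passed the threshold in edgeR or DESeq2, 0 had an unadjusted p under 0.05, and 0 were separate between the groups. MKI67, the proliferation marker, had 133, 142 and 155 CPM against 126, 144 and 125 CPM (-0.12, adjusted p 0.470).

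**Figure D5:**
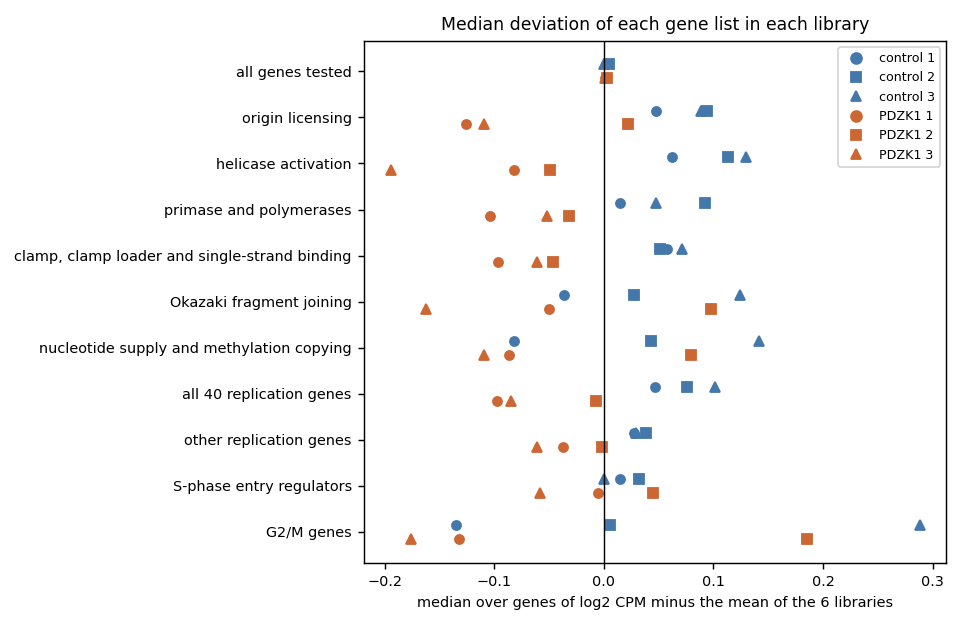
Median deviation of log2 CPM from the mean of the 6 libraries by library, for all genes tested, the 6 roles of the replication genes, the 40 together, the other replication genes, the S-phase entry regulators and the genes of G2 and mitosis. The replication genes run from 0.05 to 0.10 in control and from -0.10 to -0.01 in PDZK1 libraries, and the genes of G2 and mitosis reach 0.29 in control library 3.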

How the data were processed

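RNA sequencing of 3 control and 3 PDZK1 libraries was analysed. Per the submitters' processing notes, fastp 0.20.1, HISAT2 2.2.1 and the GRCh38 build were used. The counting program and strand setting are not given in the sources used here. Estimated counts, deposited by the authors as whole numbers without depth scaling, were tested. FPKM deposited by the authors were used for levels between genes and as an alternative. In both tables, 3 columns of per-sample values matched no sample and were not used. Of 21314 entries, 853 assembled loci (0.519 to 0.536% of counts) were left out. Genes kept by filterByExpr (13645) were fitted with edgeR 4.0.16 (R 4.3.3), TMM factors and the robust quasi-likelihood test, two-sided, with Benjamini-Hochberg adjustment over all of them. CPM used TMM library sizes, and deviations log2 CPM with a prior count of 2. The common biological coefficient of variation was 0.0995. Limits of 3 counts cover counting error only. Gene positions came from GENCODE 29 and promoters from RefSeq. Of the 40 genes, 25 are overlapped by another annotated gene and 7 have annotated pseudogenes that carry their name. Pseudogenes under other names were not sought, and whether reads are shared was not tested.

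The members and lists were chosen with earlier results of these data known, so no list was tested. All members were described, those past the threshold or without overlap between groups by library. Members of the other lists past the threshold would be named, and CDKN1A, E2F1, CCNE1, CCNE2, CCND1 and MKI67 were. POLE4 and DCK, which passed in alternatives only, were named after their values were seen. Alternatives were DESeq2 1.42.0, limma 3.58.1 (voom, and log2 FPKM with a pseudocount of 1 or 0.1, with and without a mean minimum of 0.5), other scalings, count filters (minimum 1 in any library or 10 in all), a fit without robust estimation, the replicate block, leaving out each library, and, chosen after seeing the data, keeping the assembled loci. Scripts were tested on simulated data.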

Additional observations from a re-analysis of the deposited data

How the results depend on the processing

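Of all genes, 522 passed the threshold, against 793 with DESeq2, 184 on log2(FPKM + 1), 185 on log2(FPKM + 0.1), 185 without the FPKM filter, 163 with the replicate block, and 181 to 875 when a library was left out, the highest without control library 3. Of these calls 37.0% were higher, and 46.6% with library totals only, where the median of all genes moved by 0.02. Of the 40 replication genes 1 passed (MCM6), against 0 in the 3 fits on FPKM (adjusted p 0.0940, 0.0923 and 0.106) and with the replicate block (0.106), and 0 to 1 when a library was left out. MCM6 passed in the other 8 alternatives, DESeq2 and limma-voom included, and without control library 3. The number of replication genes lower was 38 in each of the 12 alternatives that kept all libraries, and 35 to 38 when a library was left out. The median ran from -0.16 to -0.088 when a library was left out (-0.13 with all). The other replication genes gave 1 call with DESeq2 and 1 with library totals only (POLE4 in both), and 0 to 1 when a library was left out. The S-phase entry regulators gave 1 with DESeq2 and 0 to 1 when a library was left out. Signs turned when a library was left out for 9 replication genes, with adjusted p-values from 0.747 to 0.995 in the fits where they turned. The ranges of their log2 fold changes were -0.047 to 0.018 for MCM3, -0.039 to 0.070 for GINS3, -0.23 to 0.078 for PRIM1, -0.029 to 0.10 for POLD3, -0.12 to 0.041 for PCNA, -0.072 to 0.0030 for RFC3, -0.12 to 0.032 for FEN1, -0.27 to 0.026 for TYMS and -0.19 to 0.065 for TK1. The cause was not tested. The labels do not say that the same replicate number pairs libraries. Correlations of the residuals of same-numbered libraries were -0.05, -0.06 and -0.14. The highest values were those of control library 1 with PDZK1 library 3 (0.13) and control library 3 with PDZK1 library 2 (0.12). With 3 libraries a group these values do not show a pairing and cannot exclude it. With 3 libraries a group, 25 of the 40 genes overlapped between the groups.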

Other observations

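BEST1, a chloride channel gene of the pigment epithelium, had 181, 168 and 124 counts in the control libraries, 143 and 137 counts in PDZK1 libraries 2 and 3, and 11459 counts in PDZK1 library 1. FTH1, its neighbour on chromosome 11, had between 155001 and 178743 counts in the 6 libraries. BEST1 was chosen after its values were seen, and its difference between the groups rests on 1 library.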
